A study of Mus musculus with 12 samples.

Results

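Levels of 10 genes that mark the secretory and duct cells of the lacrimal gland were read from RNA sequencing of mouse lacrimal glands: 6 transcription factors (Sox9, Sox10, Pax6, Bhlha15, Elf5 and Ehf) and 4 keratins (Krt7, Krt8, Krt18 and Krt19). They were chosen by gene symbol, with earlier results of these data known. All 10 were present among the 11736 genes of the table, and all 10 passed the filter on low values. The glands came from 4 groups with 3 libraries each: mice labelled ESS, NOD mice aged 8 weeks, NOD mice aged 12 weeks, and control mice. NOD is an inbred strain prone to autoimmune disease of several glands, and the description of the study names an LGSS group in place of ESS. No allele, agent or transgene is given for any group, and neither the strain, age and sex of the ESS and control mice nor the sex of the NOD mice is stated, so strain, sex and age cannot be told apart from the differences described. Nothing says that the libraries came from separate animals, so each p-value reflects the spread among these samples alone, which may be technical.

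The lacrimal gland secretes tear fluid from acinar cells into a tree of ducts, and contractile myoepithelial cells wrap the acini. Sox9 and Sox10 are HMG-box factors that act one after the other as the lacrimal buds branch and form acini, and Pax6 is a paired-box factor needed for the eye and for the lacrimal bud. Bhlha15, also called Mist1, is a basic helix-loop-helix factor that drives the secretory machinery of mature acinar cells, and Elf5 and Ehf are ETS-family factors of glandular epithelium. Keratins are the intermediate filaments of epithelial cells and assemble as pairs of a type II chain (Krt7, Krt8) with a type I chain (Krt18, Krt19). Krt8 and Krt18 are the pair of simple epithelia in general, whereas Krt7 and Krt19 are known mainly from ducts.

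Pax6 and Ehf each have an exon that some transcripts skip, and both exons are printed because the transcript values below turn on them. The Pax6 exon has 42 bases, or 14 codons, lies at chr2:105684751-105684792 on the plus strand of GRCm38 as exon 5 of 13 of the transcript that holds it, and falls within the DNA-binding paired domain. The Ehf exon has 69 bases, or 23 codons, lies at chr2:103273885-103273953 on the minus strand as exon 6 of 9 of the main Ehf transcript, and is missing from Ehf-203. Capitals mark the exon, and the 15 lower-case bases on each side are those of the neighbouring exons in the GENCODE M21 transcript.
Pax6 exon: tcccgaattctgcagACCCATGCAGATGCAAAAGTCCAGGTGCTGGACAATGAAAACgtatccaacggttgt
Ehf exon: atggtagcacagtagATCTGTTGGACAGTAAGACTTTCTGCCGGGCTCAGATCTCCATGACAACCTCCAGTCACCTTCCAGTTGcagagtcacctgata
The Pax6 transcripts without the exon join the same flanks directly.
Pax6 junction: tcccgaattctgcaggtatccaacggttgt

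Expression was given as FPKM, fragments scaled to transcript length and library size. For some of the 10 genes the gene value and the transcript values differ, so levels set side by side between genes are a rough guide. Differences between groups were tested on log2(FPKM + 1) with limma across 10325 genes that reached 1 FPKM in 3 or more libraries, and a change was called at a Benjamini-Hochberg adjusted p of 0.05 or less; all adjusted p-values below are of this kind. This scale understates the changes of genes with low values. Over all genes the median log2 fold change was -0.15 for NOD at 8 weeks and -0.18 for NOD at 12 weeks against control. Rescaling sets the libraries level, so it moved this median to about 0 by design. Whether the shift lies in the scaling or in the glands was not tested. The fold changes in NOD glands are to be read beside that median, and most are also given relative to it. The median of all genes was -0.06 for ESS against control, and 0.09 and 0.12 for ESS against NOD at 8 and 12 weeks. A pair of ESS libraries stood apart: the summed FPKM of 6 salivary gland markers was 14453 and 9641 in ESS libraries 1 and 2, against 32.4 in ESS library 3 and at most 32.8 in each of the other 9. ESS library 3 alone gave no call among the 10 genes against control or either NOD age, and its values stand beside those of all 3 libraries. The sums of FPKM ranged between 620903 and 813763, and 63.8% to 76.5% of each was in its 20 most abundant genes. The secretory identity of the tissue was visible in the levels, with the water channel Aqp5 at 187 to 209 FPKM in ESS glands, 161 to 171 FPKM in NOD glands at 8 weeks, 162 to 202 FPKM in NOD glands at 12 weeks and 187 to 234 FPKM in control glands. Aqp5 was lower in NOD glands at 8 weeks by a log2 fold change of -0.33 (adjusted p = 0.033), a call that both rescalings removed.

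The 10 genes spanned a wide range of levels. By mean gene FPKM over the 12 libraries, Krt18 ranked 75th, Bhlha15 88th and Krt8 152nd among the 11736 genes. These ranks rest on the gene values, and genes with unlike transcript values could rank elsewhere. Ehf ranked 437th and Sox9 786th, followed by Pax6 at 1843rd, Elf5 at 2032nd and Sox10 at 2907th. The duct keratins were low, with Krt7 ranked 6302nd at a mean of 3.50 FPKM and Krt19 ranked 9723rd at a mean of 1.04 FPKM.

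**Figure D1:**
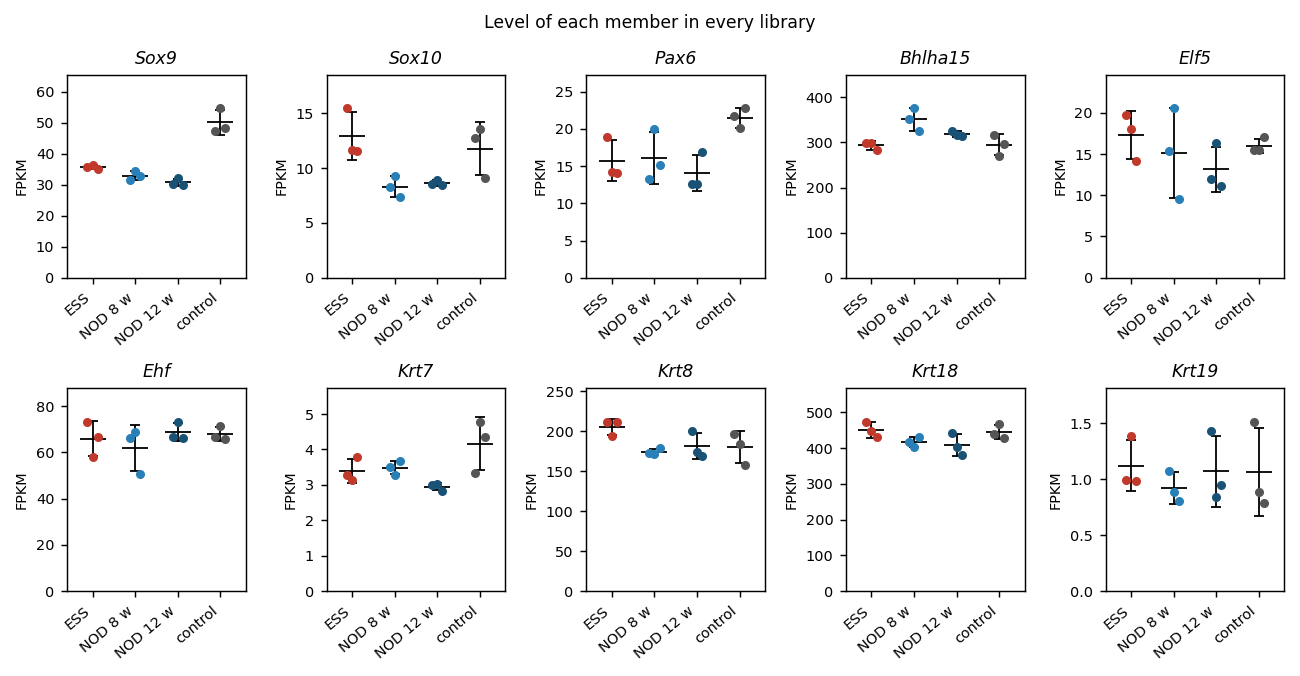
Level of each of the 10 genes in FPKM (vertical axis, from 0) in the 3 libraries of each group (points), with the group mean and SD (bars). Sox9 lies between 30.1 and 36.5 FPKM in the ESS and NOD libraries and between 47.3 and 54.6 FPKM in the control libraries, whereas Krt8 and Krt18 are at similar levels in all 4 groups.

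Against control glands, 1 of the 10 genes was called in ESS glands, where 0.165% of all tested genes were called. Because the 10 genes were chosen with earlier results of these data known, their counts are not independent of the data. In NOD glands 3 of 10 were called at 8 weeks, against 27.4% of all tested genes, and 3 of 10 at 12 weeks, against 33.4%, so both NOD counts were near the background. Sox9 was the gene called in all 3 comparisons with control. These comparisons use the same control libraries. Of the 6 transcription factors, 1 was lower in ESS glands, 1 was higher and 2 were lower in NOD glands at 8 weeks, and 2 were lower in NOD glands at 12 weeks. Over all genes the shares called lower were 0.0969%, 22.1% and 27.8% in the same order, and 5.30% were called higher in NOD glands at 8 weeks. Of the 4 keratins, 0 were called in ESS glands, 0 in NOD glands at 8 weeks and 1, Krt7, in NOD glands at 12 weeks. The median log2 fold change of the 6 factors was -0.03 in ESS glands, -0.28 in NOD glands at 8 weeks and -0.33 in NOD glands at 12 weeks. That of the 4 keratins was 0.03, -0.09 and -0.06 in the same order, beside medians of all genes of -0.06, -0.15 and -0.18.

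**Figure D2:**
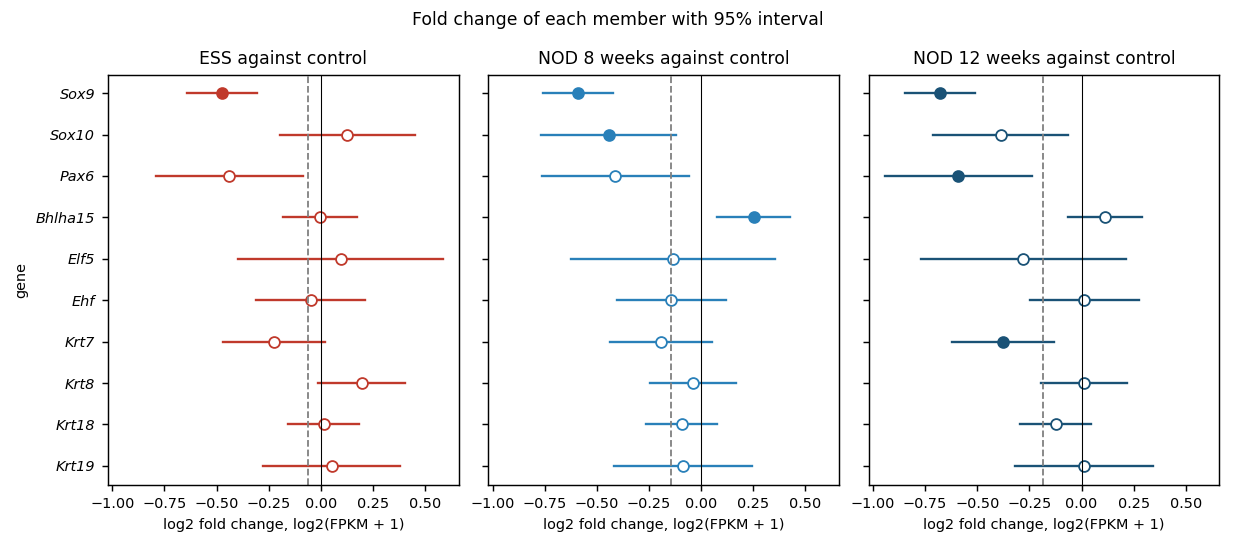
Log2 fold change against control on the log2(FPKM + 1) scale (horizontal axis) of each gene (rows) in ESS glands and in NOD glands at 8 and 12 weeks, with its 95% interval (lines). Filled points passed the adjusted p of 0.05, and the dashed line is the median of all genes; Sox9 is the filled point shared by the 3 panels, at -0.47, -0.59 and -0.68.

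Sox9 was lower in every ESS and NOD library than in any control library. It had 35.6, 36.5 and 35.1 FPKM in ESS glands. In NOD glands it had 31.6, 34.4 and 32.7 FPKM at 8 weeks and 30.4, 32.2 and 30.1 FPKM at 12 weeks. Control glands had 47.3, 54.6 and 48.4 FPKM, so the ranges did not overlap; groups did not overlap for 18.2%, 40.9% and 49.2% of all tested genes in ESS, NOD at 8 weeks and NOD at 12 weeks against control. In NOD glands at 8 weeks the log2 fold change was -0.59 ± 0.08 (SE; -0.44 relative to all genes; adjusted p = 0.00021, limma), and mean FPKM fell by 34.3%. At 12 weeks it was -0.68 ± 0.08 (SE; -0.50 relative to all genes; adjusted p = 6.7e-05, limma), and mean FPKM fell by 38.4%. Both calls held in all 14 alternatives of each comparison, with log2 fold changes of -0.63 to -0.42 at 8 weeks and -0.72 to -0.49 at 12 weeks. In ESS glands the log2 fold change was -0.47 ± 0.08 (SE; adjusted p = 0.041, limma), and mean FPKM fell by 28.7%. The ESS call was kept in 6 of 15 alternatives, though the direction was the same in all 15, and leaving out any 1 of ESS libraries 1, 2 or 3 or control libraries 1 or 3 gave adjusted p-values of 0.055 to 0.10. Without ESS libraries 1 and 2, the remaining library gave -0.50 (adjusted p = 0.21). Sox9 was not called between ESS and NOD glands. The log2 differences were 0.12 (95% interval -0.05 to 0.28) against 8 weeks and 0.20 (0.04 to 0.37) against 12 weeks (adjusted p = 0.081 for 12 weeks, limma). ESS library 3 alone gave log2 differences of 0.09 and 0.18. Relative to all genes the differences of the 3 ESS libraries were 0.03 and 0.08, beside medians of all genes of 0.09 and 0.12. In bulk RNA, fewer cells that express a gene and less RNA per cell cannot be told apart.

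Sox9 was also set against a keratin of the same library, a ratio on which the scaling of the library has no bearing. Krt18 was picked for this after its values were seen. Sox9 was 7.51%, 8.18% and 8.17% of Krt18 FPKM in ESS glands. It was 7.61%, 8.51% and 7.60% in NOD glands at 8 weeks and 6.88%, 7.96% and 7.89% in NOD glands at 12 weeks. In control glands it was 10.8%, 11.7% and 11.3%, above every ESS and NOD library. Bhlha15, set against Sox9, was 8.22 ± 0.191 times its level in ESS glands, 10.7 ± 0.634 times in NOD glands at 8 weeks, 10.3 ± 0.454 times in NOD glands at 12 weeks and 5.93 ± 0.899 times in control glands (SD, n = 3 each). The highest control library, at 6.71 times, was below the lowest ESS library at 8.04 times. These ratios describe the libraries and were not tested.

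**Figure D3:**
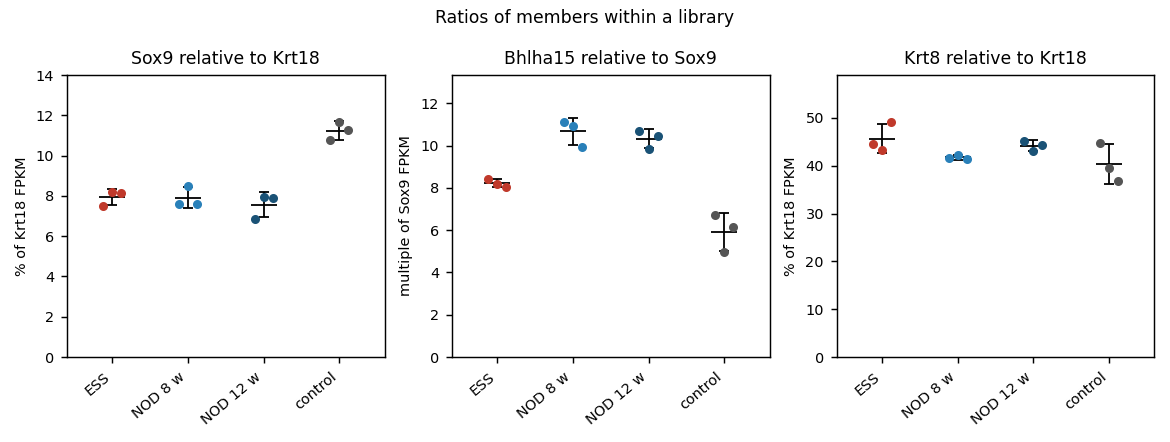
Sox9 as a percent of Krt18, Bhlha15 as a multiple of Sox9, and Krt8 as a percent of Krt18, all from FPKM of the same library (points, 3 libraries a group; bars, mean and SD). Sox9 is 6.88% to 8.51% of Krt18 in the ESS and NOD libraries and 10.8% to 11.7% in the control libraries, while Krt8 is 36.8% to 49.2% of Krt18, with the ESS and both NOD groups overlapping the control group.

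Sox10, which also marks myoepithelial and glial cells, had a lower level in NOD glands than in ESS glands. It had 15.4, 11.7 and 11.6 FPKM in ESS glands. NOD glands had 8.29, 9.24 and 7.38 FPKM at 8 weeks and 8.59, 8.91 and 8.44 FPKM at 12 weeks, and control glands had 12.7, 13.6 and 9.06 FPKM. The third control library lay within the range of the 8-week NOD libraries, while all 3 ESS libraries lay above all 6 NOD libraries; groups did not overlap for 33.1% and 41.5% of all genes in ESS against NOD at 8 and 12 weeks. ESS glands were higher than NOD glands at 8 weeks by 0.57 ± 0.15 on the log2 scale (SE; 0.48 relative to all genes; adjusted p = 0.022, limma), the 1 call among the 10 genes in a comparison with 15.2% of all genes called, and 11.3% called higher. They were higher than NOD glands at 12 weeks by 0.52 ± 0.15 (SE; 0.39 relative to all genes; adjusted p = 0.029, limma), again the 1 call of 10 where 20.6% of all genes were called and 16.2% called higher. Without ESS libraries 1 and 2 the differences were 0.44 (adjusted p = 0.29) and 0.38 (adjusted p = 0.32), and without ESS library 1 alone they were 0.44 (adjusted p = 0.088) and 0.39 (adjusted p = 0.12). Leaving out NOD library 1 or 3 at 8 weeks (adjusted p = 0.059 and 0.074), or any 1 of the 12-week libraries (0.065 to 0.086), also lost the call, and both rescalings lost it against 12 weeks (adjusted p = 0.072 and 0.055). Against control, Sox10 was lower in NOD glands at 8 weeks, at -0.44 ± 0.15 (SE; -0.30 relative to all genes; adjusted p = 0.044, limma), a call kept in 6 of 14 alternatives and lost under both rescalings. Leaving out any 1 of NOD libraries 1 and 3 and control libraries 1 and 2 also lost it, with adjusted p-values of 0.091 to 0.15. At 12 weeks the value was -0.39 (-0.20 relative to all genes; adjusted p = 0.063). In ESS glands it was 0.13 (95% interval -0.20 to 0.45), and -0.0063 with ESS library 3 alone.

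Because Sox10 is not limited to acinar cells, markers of its other cell types were read beside it. The summed FPKM of 5 Schwann cell markers of 9 looked for was 21.4 to 26.0 in ESS glands, 21.7 to 32.3 in NOD glands at 8 weeks, 24.4 to 28.3 in NOD glands at 12 weeks and 28.1 to 29.8 in control glands. The summed FPKM of 10 myoepithelial markers was 133 to 156 in ESS glands, 156 to 159 in NOD glands at 8 weeks, 122 to 130 in NOD glands at 12 weeks and 129 to 176 in control glands. Of the 10 myoepithelial markers, 1 was higher in NOD glands at 8 weeks (Myh11, smooth-muscle myosin) and 1 was lower at 12 weeks (Krt14). Under both rescalings 3 were higher at 8 weeks, and at 12 weeks 1 was higher and 0 were lower. Their part in the Sox10 values was not tested.

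Pax6 lay below control in all 9 other libraries. It had 18.9, 14.2 and 14.1 FPKM in ESS glands, 13.3, 20.1 and 15.1 FPKM in NOD glands at 8 weeks, and 12.6, 12.7 and 16.9 FPKM in NOD glands at 12 weeks. Control glands had 21.7, 20.1 and 22.8 FPKM, and the highest NOD library at 8 weeks, at 20.05 FPKM, was just under the lowest control library at 20.10 FPKM. The fall was called in NOD glands at 12 weeks, at -0.59 ± 0.16 (SE; -0.41 relative to all genes; adjusted p = 0.016, limma), and mean FPKM fell by 34.6%. This call was kept in 10 of 14 alternatives and lost under both rescalings, without NOD library 1 (adjusted p = 0.054) and without NOD library 2 (adjusted p = 0.063). At 8 weeks the value was -0.41 (-0.27 relative to all genes; adjusted p = 0.081). In ESS glands it was -0.44 (adjusted p = 0.30), and -0.57 with ESS library 3 alone (adjusted p = 0.48). An antisense gene, Pax6os1, overlaps Pax6, and whether the counting used strand is not stated, so reads of the pair may not have been separated.

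The 42-base exon printed above was included in a minor share of Pax6 transcripts in each group. Among the 9 listed transcripts that span its position, those with the exon made up 25.1% ± 6.19 of the summed FPKM in ESS glands and 24.1% ± 10.8 in NOD glands at 8 weeks. The share was 29.4% ± 4.25 in NOD glands at 12 weeks and 28.5% ± 12.3 in control glands (SD, n = 3 each). Single libraries ran between 11.8% (NOD at 8 weeks, library 2) and 39.6% (control, library 1), and the 4 groups overlapped. Transcript values are estimates from reads that transcripts share, with no error given in the table.

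Bhlha15 was at high levels in all libraries. It had 300, 299 and 282 FPKM in ESS glands, 352, 376 and 326 FPKM in NOD glands at 8 weeks, 325, 316 and 314 FPKM in NOD glands at 12 weeks, and 318, 271 and 297 FPKM in control glands. The 8-week NOD libraries lay above all others, the lowest of them by less than 1 FPKM over the highest 12-week library. Bhlha15 was higher in NOD glands at 8 weeks than in control glands by 0.25 ± 0.08 on the log2 scale (SE; 0.40 relative to all genes; adjusted p = 0.038, limma), and this call was kept in 9 of 14 alternatives. Leaving out any 1 of NOD libraries 1 and 2 and control libraries 2 and 3 lost it, with adjusted p-values of 0.069 to 0.13. At 12 weeks the value was 0.11 (0.30 relative to all genes; adjusted p = 0.30), and it passed the threshold under both rescalings. In ESS glands it was -0.0037 (95% interval -0.18 to 0.17; adjusted p = 0.99), and -0.06 with ESS library 3 alone. Against NOD glands at 8 weeks, ESS glands had a log2 difference of -0.26 (-0.34 relative to all genes; adjusted p = 0.054), which passed the threshold under both rescalings, with a filter at 5 FPKM and without NOD library 3, and was -0.31 with ESS library 3 alone (adjusted p = 0.23). Against 12 weeks the difference was -0.12 (-0.24 relative to all genes; adjusted p = 0.34). With quantile normalization it was -0.40 (adjusted p = 0.0059), so that Bhlha15 was then the 1 gene called in that comparison and Sox10 was not.

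Of 7 genes that Bhlha15 is known to activate in acinar cells, 5 were tested. Against control 2 were lower in NOD glands at each age, Rab26 and Gjb1, and 0 were called in ESS glands. Over all genes 22.1% were lower at 8 weeks and 27.8% at 12 weeks, and 0.165% were called in ESS glands. Rab26, a small GTPase of secretory granules, had 4.73 ± 0.605 FPKM in NOD glands at 8 weeks, 5.11 ± 0.670 FPKM at 12 weeks and 10.4 ± 1.64 FPKM in control glands (SD, n = 3 each), with log2 fold changes of -0.99 (-0.84 relative to all genes; adjusted p = 0.00040) and -0.89 (-0.71 relative to all genes; adjusted p = 0.00073). Gjb1, the gap junction protein connexin 32, had log2 fold changes of -0.25 at 8 weeks and -0.28 at 12 weeks, calls that both rescalings removed. Rab3d, another granule GTPase, had 96.7, 104 and 92.9 FPKM in NOD glands at 8 weeks, 34.2, 35.4 and 33.0 FPKM at 12 weeks, and 42.8, 106 and 40.9 FPKM in control glands, with no call against control. Its second control library was above the 8-week NOD libraries, and control libraries 1 and 3 were below them. ESS glands showed a like split, with 42.6, 109 and 43.4 FPKM in libraries 1, 2 and 3. The median log2 fold change of the 5 genes was -0.07 at 8 weeks and -0.28 at 12 weeks (0.07 and -0.10 relative to all genes).

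The ETS factors Elf5 and Ehf were not called in any of the 6 comparisons. Elf5 had 17.3 ± 2.87 FPKM in ESS glands, 15.1 ± 5.51 FPKM in NOD glands at 8 weeks, 13.2 ± 2.75 FPKM in NOD glands at 12 weeks and 16.0 ± 0.886 FPKM in control glands (SD, n = 3 each). Its 8-week NOD libraries were spread over 9.52 to 20.5 FPKM, with a 95% interval of -0.62 to 0.36 against control. Ehf had 66.0 ± 7.60 FPKM in ESS glands, 61.9 ± 9.86 FPKM in NOD glands at 8 weeks, 68.7 ± 3.89 FPKM in NOD glands at 12 weeks and 68.0 ± 3.00 FPKM in control glands. Its log2 fold changes against control had intervals of -0.31 to 0.21, -0.41 to 0.12 and -0.25 to 0.27. With ESS library 3 alone the values against control were -0.17 for Elf5 and -0.03 for Ehf. The 2 genes are neighbours on chromosome 2, with 108409 bases between them.

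In the transcript values, which are estimates from reads that transcripts share, Ehf differed in 1 library. How such reads were allotted there was not tested. Ehf-203, which lacks the 69-base exon printed above, had 75.4 FPKM in the second NOD library at 12 weeks and made up 71.6% of the summed Ehf transcripts there. It was listed at 0 in the other 11 libraries, and the main Ehf transcript had 28.3 FPKM in that library against 62.1 to 91.1 FPKM in the others. The gene value of Ehf in that library, 73.1 FPKM, was close to the other two of its group at 66.8 and 66.0 FPKM. Elf5 also had a second transcript, Elf5-207, whose share was 0%, 0% and 2.55% in ESS glands, 5.09%, 0% and 24.0% in NOD glands at 8 weeks, 15.9%, 2.92% and 19.0% in NOD glands at 12 weeks, and 2.22%, 2.17% and 1.68% in control glands. The 3 NOD libraries with shares of 15.9% or more were also the 3 with the lowest Elf5 gene values, at 9.52, 12.0 and 11.2 FPKM.

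**Figure D4:**
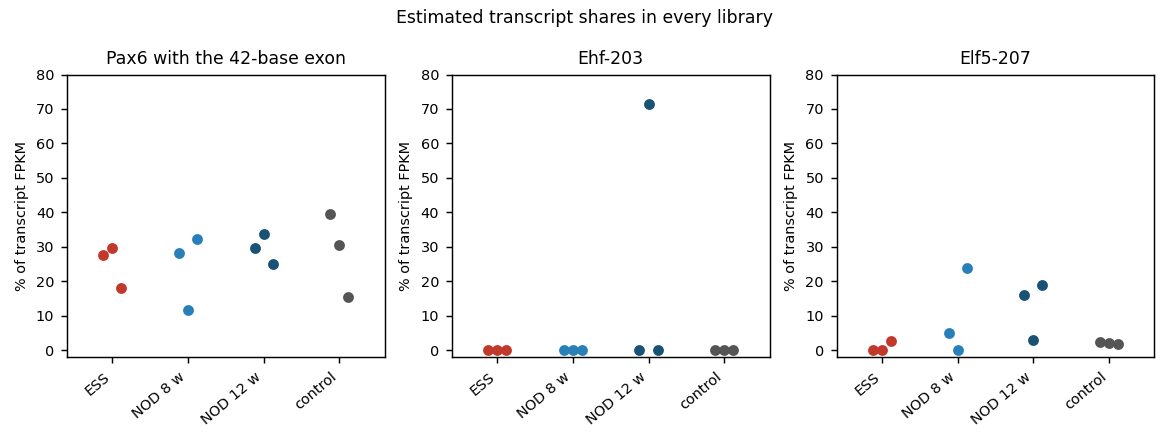
Estimated share of Pax6 transcripts that hold the 42-base exon, of Ehf-203 among Ehf transcripts and of Elf5-207 among Elf5 transcripts, in percent of transcript FPKM (vertical axis), in each library (points, 3 a group). Ehf-203 is at 71.6% in 1 NOD library at 12 weeks and at 0 elsewhere, and the Pax6 shares of the 4 groups overlap.

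The keratins were dominated by Krt8 and Krt18, which together made up 99.1% to 99.4% of the summed FPKM of the 4 keratins in every library. Krt18 had 474, 446 and 430 FPKM in ESS glands, 416, 404 and 431 FPKM in NOD glands at 8 weeks, 442, 404 and 381 FPKM in NOD glands at 12 weeks and 439, 467 and 429 FPKM in control glands. The groups overlapped with control, and the log2 fold changes had 95% intervals of -0.15 to 0.19 in ESS glands, -0.26 to 0.08 in NOD glands at 8 weeks and -0.29 to 0.05 in NOD glands at 12 weeks. ESS library 3 alone gave -0.05. Krt8 had 211, 194 and 212 FPKM in ESS glands, 173, 171 and 179 FPKM in NOD glands at 8 weeks, 200, 174 and 169 FPKM in NOD glands at 12 weeks and 197, 184 and 158 FPKM in control glands. All 3 ESS libraries were above the 8-week NOD libraries. The difference was 0.24 on the log2 scale (95% interval 0.03 to 0.44), or 0.15 relative to all genes. It was not called (adjusted p = 0.12, limma), and was 0.28 with ESS library 3 alone. Krt8 was 45.7% ± 3.11 of Krt18 in ESS glands, 41.8% ± 0.487 in NOD glands at 8 weeks, 44.2% ± 1.08 in NOD glands at 12 weeks and 40.4% ± 4.10 in control glands (SD, n = 3 each). A pseudogene transcript shares a stretch of 941 bases with Krt8 at 95% identity or more, so some reads of that stretch could be assigned to either. A noncoding gene on the opposite strand, Gm36026, overlaps Krt8.

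Krt8 and Krt18 lie 23873 bases apart on chromosome 15, and Krt8 was 36.8% to 49.2% of Krt18 over the libraries. The 250 bases before each gene's start are printed, from RefSeq on GRCm38.p6. The Krt8 window is chr15:102004343-102004592 on the minus strand and the Krt18 window is chr15:102027966-102028215 on the plus strand. Both strands were searched for the E-box CANNTG, its form CAGCTG, the ETS core AGGAAG, the SOX core ACAANG, the GC box GGGCGG and the TATA box TATAAA, and capitals mark a match.
Krt8: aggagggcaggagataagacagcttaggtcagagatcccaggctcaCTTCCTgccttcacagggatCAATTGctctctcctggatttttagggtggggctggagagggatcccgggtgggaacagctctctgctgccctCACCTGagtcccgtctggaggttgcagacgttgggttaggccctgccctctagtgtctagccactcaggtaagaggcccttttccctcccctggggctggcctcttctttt
Krt18: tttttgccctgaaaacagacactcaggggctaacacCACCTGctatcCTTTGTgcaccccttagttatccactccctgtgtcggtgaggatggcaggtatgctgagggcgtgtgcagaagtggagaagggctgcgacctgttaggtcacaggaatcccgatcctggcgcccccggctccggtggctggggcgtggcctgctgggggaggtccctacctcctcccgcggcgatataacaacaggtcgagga
Krt8 holds 2 matches to CANNTG, letters that basic helix-loop-helix factors bind, and 1 to AGGAAG, on the opposite strand. Krt18 holds 1 match to CANNTG and 1 to ACAANG, also on the opposite strand, and the other 3 motifs occur in neither window. Among 32851 promoter windows of this length, CANNTG occurs in 66.2%, CAGCTG in 13.0%, AGGAAG in 29.5%, ACAANG in 36.3%, GGGCGG in 32.7% and TATAAA in 12.4%.

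Of the duct keratins, Krt7 had 3.29, 3.13 and 3.78 FPKM in ESS glands, 3.51, 3.28 and 3.66 FPKM in NOD glands at 8 weeks and 2.99, 3.02 and 2.83 FPKM in NOD glands at 12 weeks. Control glands had 3.34, 4.78 and 4.36 FPKM, all above the 12-week NOD libraries, while the first control library lay within the other 2 groups. Krt7 was lower in NOD glands at 12 weeks by a log2 fold change of -0.38 ± 0.11 (SE; -0.19 relative to all genes; adjusted p = 0.023, limma), a call kept in 5 of 13 alternatives and lost under both rescalings. Leaving out any 1 of NOD libraries 2 and 3 and control libraries 2 and 3 also lost it, with adjusted p-values of 0.056 to 0.091. The values were -0.22 (adjusted p = 0.45) in ESS glands, -0.10 with ESS library 3 alone, and -0.19 (-0.05 relative to all genes; adjusted p = 0.23) in NOD glands at 8 weeks. Krt19 had 1.12 ± 0.226 FPKM in ESS glands, 0.920 ± 0.139 FPKM in NOD glands at 8 weeks, 1.07 ± 0.315 FPKM in NOD glands at 12 weeks and 1.06 ± 0.394 FPKM in control glands (SD, n = 3 each), with overlapping groups and no call. The 95% interval against control was -0.28 to 0.38 in ESS glands and -0.32 to 0.34 in NOD glands at 12 weeks, and ESS library 3 alone gave -0.04. A predicted gene on the opposite strand overlaps Krt7.

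Between the NOD ages 0 of the 10 genes were called, in a comparison where limma called 0.126% of all genes and 9.05% had an unadjusted p under 0.05. The 12-week libraries lay below the 8-week libraries without overlap for Bhlha15 (log2 difference -0.14, 95% interval -0.32 to 0.04) and Krt7 (-0.18, -0.43 to 0.06), and groups did not overlap for 15.5% of all genes. For Sox9 the difference was -0.09 (-0.26 to 0.08) and the ages overlapped.

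Of 21 other transcription factors of glandular epithelium, 3 were higher and 6 were lower at 8 weeks, and 2 were higher and 10 were lower at 12 weeks, with median log2 fold changes of -0.22 and -0.28. Over all genes 5.30% were higher and 22.1% lower at 8 weeks, and 5.52% higher and 27.8% lower at 12 weeks, and these shares apply to the list counts that follow. With library medians centred the counts were 6 higher and 3 lower at 8 weeks, and 3 higher and 6 lower at 12 weeks, so at 8 weeks the balance turned with the scaling. In ESS glands 0 were called. The factors named next were all on the lower side, and those called higher are not named. Klf5, a zinc-finger factor of epithelial progenitors, had 1.10 ± 0.141 FPKM in NOD glands at 12 weeks and 2.87 ± 0.193 FPKM in control glands (SD, n = 3 each; log2 fold change -0.89, or -0.70 relative to all genes; adjusted p = 0.00062). Grhl2, a grainyhead factor of epithelial junctions, had 5.95 ± 0.625 FPKM in NOD glands at 12 weeks and 10.3 ± 1.38 FPKM in control glands (log2 fold change -0.70, or -0.51 relative to all genes; adjusted p = 0.00095). Runx1 was lower at 8 weeks, at -0.68 (adjusted p = 0.0065; -0.54 relative to the all-gene median). Etv5, an ETS factor of branching glands, had a log2 fold change of -0.62 (adjusted p = 0.0094; -0.47 relative to the all-gene median), a call that both rescalings removed.

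Among 6 other keratins tested, 0 were called in NOD glands at 8 weeks and 1, the basal and myoepithelial keratin Krt14, was lower at 12 weeks, at 14.4 ± 1.37 FPKM against 20.2 ± 3.54 FPKM in control glands (log2 fold change -0.45, or -0.27 relative to all genes; adjusted p = 0.020). Under both rescalings Krt14 was not called and Krt80 was higher at both ages. Of 9 genes listed as desmosome and keratin partners, 5 were lower and 0 were higher at each NOD age, beside 22.1% and 27.8% of all genes lower. The desmosomal plaque protein Pkp3 had 6.96 ± 0.330 FPKM in NOD glands at 8 weeks, 7.29 ± 0.648 FPKM at 12 weeks and 10.5 ± 0.691 FPKM in control glands, and the desmosomal cadherin Dsg2 had 8.50 ± 1.71, 8.66 ± 0.209 and 12.5 ± 1.07 FPKM in the same order (SD, n = 3 each). With library medians centred 3 genes of this list were lower at 8 weeks and 1, Krtcap3, at 12 weeks. Krtcap3 is a keratinocyte-associated protein and not a desmosome component. Pkp3 and Dsg2 were then called at 8 weeks alone.

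Of 17 adhesion and polarity genes, 2 were higher and 5 lower at 8 weeks, and 2 were higher and 6 lower at 12 weeks. With library medians centred the counts were 3 higher and 1 lower at 8 weeks, so the balance turned with the scaling, and 2 higher and 4 lower at 12 weeks. The GTPase Rab25 rose, with log2 fold changes of 0.87 at 8 weeks and 0.94 at 12 weeks (1.01 and 1.13 relative to all genes), and the tight-junction protein Cldn3 fell by 0.49 and 0.63 (-0.34 and -0.44 relative to all genes; the 8-week fall was lost with library medians centred, adjusted p = 0.081). Of 10 acinar secretion genes, 1 was higher and 5 were lower at 8 weeks, and 1 was higher and 1 was lower at 12 weeks. Under both rescalings 1 was higher and 2 were lower at 8 weeks. The polymeric immunoglobulin receptor Pigr had 89.9 ± 11.3 FPKM in NOD glands at 8 weeks, 206 ± 15.2 FPKM at 12 weeks and 221 ± 48.1 FPKM in control glands (SD, n = 3 each). Its log2 fold change against control was -1.27 at 8 weeks (-1.13 relative to all genes; adjusted p = 0.00012) and -0.08 at 12 weeks (adjusted p = 0.72), and it was higher at 12 than at 8 weeks by 1.19 (adjusted p = 0.011). The potassium channel Kcnn4 fell by 0.94 at 8 weeks and by 0.83 at 12 weeks (-0.79 and -0.64 relative to all genes). The calcium-release channel Itpr3 rose by 0.54 and 0.51 (0.68 and 0.69 relative to all genes). Of 8 duct ion and secretory genes, 0 were higher at either age, 3 were lower at 8 weeks and 4 at 12 weeks, among them the carbonic anhydrase Car2, at -0.79 and -0.60 (-0.64 and -0.41 relative to all genes), and the secreted protein Wfdc2, at -1.02 and -1.34 (-0.87 and -1.15 relative to all genes). With library medians centred 2 were lower at 8 weeks and 1, Wfdc2, at 12 weeks, and with quantile normalization 2 at each age. In ESS glands 0 genes of any of these lists were called by limma against control. Over all genes 0.165% were called in that comparison, and 12.1% had an unadjusted p under 0.05.

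**Figure D5:**
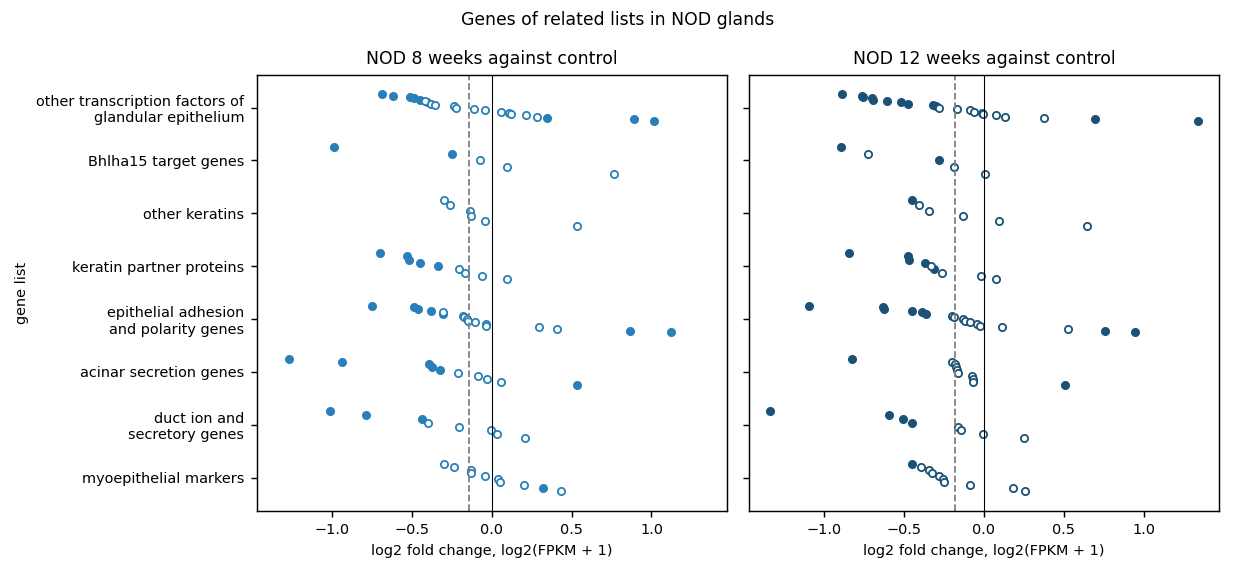
Log2 fold change on the log2(FPKM + 1) scale (horizontal axis) of the tested genes (points) of 8 lists (rows) in NOD glands at 8 and 12 weeks against control. Filled points passed the adjusted p of 0.05 and the dashed line is the median of all genes; 0 of 8 duct genes are filled on the higher side, and 3 and 4 are filled on the lower side, of which 2 and 1 pass with library medians centred.

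Of 9 immune cell markers looked for, Cd3e, Cd3g and Ms4a1 had no value, and the others gave 7 entries. Their summed FPKM was 136 to 227 in ESS glands, 65.8 to 73.1 in NOD glands at 8 weeks, 63.9 to 104 in NOD glands at 12 weeks and 104 to 173 in control glands. The highest 12-week NOD library, at 103.938, was just under the lowest control library, at 103.952. Of 4 entries tested, 2 were lower in NOD glands at 8 weeks and 3 at 12 weeks, beside 22.1% and 27.8% of all genes. With library medians centred 1 was lower at each age. The ranges of the fibroblast, endothelial and adipocyte sums overlapped with control in all 3 groups. The part of these cell types in the values of the 10 genes was not tested.

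By the root mean square difference of log2 levels over the 12 libraries, each gene taken from its own mean, the gene most like Sox9 among 5437 that varied was Plin3 (0.05, where Sox9 itself had an SD of 0.28), followed by Cdo1 (0.08). Ctsb was nearest to Sox10 (0.08, SD of Sox10 0.31), Ankrd49 to Pax6 (0.12, SD 0.30) and D930048N14Rik to Elf5 (0.16, SD 0.31). The other 6 genes had SDs of 0.089 to 0.18, under the 0.2 asked of candidates. Their nearest genes were Pdgfa for Krt7 (0.10, SD of Krt7 0.18), Brox for Ehf (0.095, SD 0.15), Impa2 for Krt19 (0.13, SD 0.17), Hectd3 for Bhlha15 (0.10, SD 0.13) and Timm23 for Krt8 (0.11, SD 0.13). Fam219a, the nearest to Krt18, differed from it by 0.13, more than the SD of Krt18 itself.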

How the data were processed

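Lacrimal gland RNA was extracted with Trizol and made into libraries with a stranded KAPA kit, per the labels' protocols, and the build was GRCm38 per the submitters' processing notes. The sources used here give neither aligner nor annotation release. The authors deposited FPKM for 11736 genes and for their transcripts, per the file headers. No file gives counts, and 42.9% to 65.3% of low values lay within 0.1 of a whole multiple of the best-fitting step, so whole reads were not recovered, depth is unknown and no counting interval is given.

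Libraries were grouped by their titles. The 10325 genes that reached 1 FPKM in 3 or more of 12 libraries were fitted as log2(FPKM + 1) with limma 3.58.1 in R 4.3.3, with a trend and a mean for each of 4 groups, two-sided, adjusted over all genes tested. The 6 comparisons were each group against control, 12 against 8 weeks, and ESS against each NOD age. The procedure was tested on simulated data. Alternatives were a pseudocount of 0.1, quantile normalization, centring of library medians, no filter or a 5 FPKM filter, the compared groups alone, a replicate block, summed transcript values, and leaving out each library or ESS libraries 1 and 2. The 10 genes, the gene lists and the lists' markers were chosen with earlier results of these data known. Ratios between genes, transcript shares, promoter motifs and the search for near-identical copies (blastn 2.17.0, at least 95% identity over at least 50% of the length) were added after the values were seen and are descriptions with no test. All 10 genes are named, and of other lists up to 3 genes with the smallest adjusted p in a comparison with control. A gene of these lists is not reported here by name. The member IDs of Sox10, Krt7, Krt8 and Krt18 were not found with their version in GENCODE M21. Promoter entries were found for 6 of the 10 genes. Tables were made with pandas 2.3.3 in Python 3.11.15 and figures with matplotlib 3.10.9.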

Additional observations from a re-analysis of the deposited data

How the results depend on the processing

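Of 858 alternative values of the 60 log2 fold changes (10 genes in 6 comparisons), 738 kept their direction and their side of the threshold, 45 lost a call, 10 gained one and 65 changed sign. All 65 were values that were not called, before or after. The cause was not tested in any case. Depth is unknown, 3 libraries a group limit the precision, and a library left alone in its group was assumed to vary like the others.

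The number of the 10 genes called in ESS against control was 0 with library medians centred, with summed transcript values, with the compared groups alone and without ESS libraries 1 and 2, and 0 to 1 when 1 library was left out. For NOD against control it was 1 at 8 weeks with the compared groups alone, and 1 to 3 at either age when 1 library was left out. For ESS against NOD at 8 weeks it was 2 with a filter at 5 FPKM, with quantile normalization and with medians centred, the added gene being Bhlha15, and 0 without ESS libraries 1 and 2; against 12 weeks it was 0 with medians centred and without ESS libraries 1 and 2, and with quantile normalization the 1 gene was Bhlha15 in place of Sox10. Leaving out 1 library gave 0 to 1 for both.

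Of all genes, 17 were called in ESS against control, and 11 with a pseudocount of 0.1, 35 without a filter, 9 with a filter at 5 FPKM, 27 with quantile normalization, 2 with summed transcript values, 3 with the groups alone and 1 to 75 when 1 library was left out. A filter at 5 FPKM, which tests fewer genes, gave 1681 for NOD at 8 weeks, 2168 for NOD at 12 weeks, 8 between the ages and 1025 for ESS against 8 weeks, where the main counts were 2825, 3444, 13 and 1570. Between the ages it was also 24 with quantile normalization, 5 with summed transcripts, 32 with the groups alone and 6 to 16 when 1 library was left out. Without ESS libraries 1 and 2 it was 552 against 8 weeks and 586 against 12 weeks (2128 in the main fit), where leaving out 1 library gave 1261 to 1906.

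The replicate block, with the labels' replicate number as a term, gave 27 genes in ESS against control and made Sox10 pass in NOD at 12 weeks (adjusted p = 0.036). It changed no other call of the 10 genes. Correlations of deviations between same-numbered libraries ran between -0.10 and 0.20. The labels state no pairing, and with 3 libraries a group these correlations cannot exclude a shared batch.

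With library medians centred, the values that changed sign were 0.067 for Bhlha15 and 0.023 for Ehf in ESS against control, and 0.036 for Elf5, 0.027 for Ehf, 0.13 for Krt8, 0.078 for Krt18 and 0.083 for Krt19 in NOD at 8 weeks against control, and 0.065 for Krt18 in NOD at 12 weeks against control. Further such values were -0.0044 for Ehf in ESS against NOD at 8 weeks, and -0.077 for Krt19 in ESS against NOD at 12 weeks. With quantile normalization, the values that changed sign were -0.15 for Krt18 in ESS against control, and 0.015 for Elf5, 0.089 for Krt8 and 0.071 for Krt19 in NOD at 8 weeks against control, and 0.11 for Krt18 in NOD at 12 against 8 weeks. Further such values were -0.011 for Sox9 and -0.016 for Krt18 in ESS against NOD at 8 weeks, and -0.070 for Krt8, -0.13 for Krt18 and -0.068 for Krt19 in ESS against NOD at 12 weeks. With summed transcript values, the values that changed sign were 0.056 for Pax6 in ESS against NOD at 8 weeks, and -0.072 for Krt7 in ESS against NOD at 12 weeks. Without ESS libraries 1 and 2, the values that changed sign were -0.0063 for Sox10, -0.17 for Elf5, -0.049 for Krt18 and -0.038 for Krt19 in ESS against control, and -0.033 for Elf5 and 0.093 for Krt7 in ESS against NOD at 8 weeks, and -0.049 for Krt19 in ESS against NOD at 12 weeks.

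Leaving out 1 library gave -0.00087 to 0.23 for Elf5, -0.022 to 0.051 for Krt18, -0.13 to 0.039 for Ehf, -0.042 to 0.20 for Krt19, -0.064 to 0.051 for Bhlha15 and -0.035 to 0.23 for Sox10 in ESS against control. The ranges were -0.37 to 0.14 for Elf5, -0.13 to 0.029 for Krt8 and -0.18 to 0.063 for Krt19 in NOD at 8 weeks against control. The ranges were -0.076 to 0.081 for Krt8, -0.11 to 0.16 for Krt19 and -0.032 to 0.049 for Ehf in NOD at 12 weeks against control. The ranges were -0.021 to 0.10 for Krt8, -0.021 to 0.18 for Krt19, -0.087 to 0.020 for Krt18, -0.42 to 0.095 for Elf5 and -0.017 to 0.13 for Sox10 in NOD at 12 against 8 weeks. The ranges were -0.16 to 0.13 for Pax6, -0.091 to 0.015 for Krt7, -0.049 to 0.47 for Elf5 and -0.040 to 0.18 for Ehf in ESS against NOD at 8 weeks. The ranges were -0.14 to 0.025 for Ehf and -0.046 to 0.16 for Krt19 in ESS against NOD at 12 weeks.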
